A study of Mus musculus with 6 samples.

Results

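Satellite repeats are short sequences arranged head to tail, and in the mouse they make up much of the chromatin that stays condensed through the cell cycle. The 6 names and name prefixes GSAT_MM, SYNREP_MM, MMSAT4, IMPB_01, MurSatRep1 and CENSAT were looked for among the 1217 repeat names of the count tables. They matched 5 names, which are GSAT_MM, SYNREP_MM, CENSAT_MC, MMSAT4 and MurSatRep1, and IMPB_01 matched none. Each name adds up reads from all of its annotated copies, and no location of a copy was used here. The label of heterochromatin therefore cannot be checked for MMSAT4 and MurSatRep1, which hold nearly all of the counts. Whether their reads come from copies inside exons of genes was not tested either, so their values below are of reads given these names and not of satellite arrays.

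GSAT_MM is the major satellite, whose arrays flank mouse centromeres. SYNREP_MM is the minor satellite, the repeat of the centromere itself, on which the centromeric histone CENP-A assembles, and CENSAT_MC carries the name of a centromeric satellite. Major satellite chromatin is marked by methylation of lysine 9 of histone H3, laid down by the SUV39H enzymes and bound by HP1 proteins. Histone H3.3, the replacement variant of histone H3, is placed there and at telomeres by ATRX with DAXX, and at many other sites by the HIRA complex. Assemblies of the mouse genome leave out most of the tandem arrays, and the copies within an array are nearly alike, so a short read from one usually aligns to many places.

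RNA with a poly(A) tail was sequenced from 6 whole embryos at E10.5, 3 in each of 2 groups, on a mixed C57BL/6, CD1 and 129 background. Knockout embryos were H3f3afl/-; H3f3bfl/- and controls H3f3afl/+; H3f3bfl/+, so that every embryo carried a floxed allele of both genes of histone H3.3. All embryos of both groups were also Sox2-CreTg/0, with the recombinase driven from Sox2 in the epiblast, and Trp53-/-, without the tumour suppressor p53. Controls can therefore have recombined floxed alleles too, and nothing was measured against embryos with intact H3.3 or p53 genes. Whether embryos shared a litter, and whether RNA was pooled, was not given in the sources used here. The files of knockouts 2 and 3 share a code, and what it stands for is not known here. The p-values take the 6 samples as independent, and set the difference of the groups against the spread among samples.

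The libraries held 24952853 to 30461689 counts in genes and 2661391 to 4600118 counts in repeat names. Levels are given as CPM, counts per 1000000 gene counts after TMM scaling, which evens out the bulk of genes between libraries. H3f3a stood at 338, 366 and 342 CPM in controls 1, 2 and 3, and at 70.0, 64.4 and 68.5 CPM in knockouts 1, 2 and 3, a log2 fold change of -2.37 (edgeR adjusted p = 1.5e-06). H3f3b stood at 676, 727 and 669 CPM against 469, 503 and 392 CPM, a log2 fold change of -0.60 (edgeR adjusted p = 0.0257), which did not pass when control 1 (0.138), control 2 (0.111), control 3 (0.0626) or knockout 3 (0.0974) was left out. Trp53, null by label in all embryos, still had 64 to 88 counts in controls and 86 to 148 in knockouts. All 14 markers of embryonic tissues were tested, and Kdr, of blood vessels, was called higher by edgeR (0.44, adjusted p = 0.0302), and T, of early mesoderm, by DESeq2 only. Of 10 markers of placenta, yolk sac or decidua, 3 were at 0 in every library and 1, Ttr, was tested and called lower (-1.69, edgeR adjusted p = 0.00886). The 10 together summed to 8.53 to 12.7 CPM in controls and 2.5 to 4.28 CPM in knockouts. Nearly all of this sum was Ttr, with group means of 10.2 CPM in controls and 3.16 CPM in knockouts. Each of the other markers had 4 counts or fewer in every library, too few to compare the groups. The difference of the sums is therefore that of Ttr, and shows none in the other markers. The part of the 10 markers in the satellite counts was not tested. Alignments outside genes were 9.79% to 13.1% of each control library, and 18.3%, 10.6% and 18.0% of knockouts 1, 2 and 3.

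The repeat names best known from centromeric heterochromatin gave almost no counts. GSAT_MM, the major satellite, had 9, 6 and 12 counts in controls 1, 2 and 3 and 8, 14 and 10 counts in knockouts 1, 2 and 3. The groups overlapped, and the 95% Poisson interval of the lowest count, 2.2 to 13.1, overlapped that of the highest, 7.65 to 23.5. SYNREP_MM, the minor satellite, was counted 0, 1 and 2 times in controls 1, 2 and 3, against 2, 0 and 2 times in knockouts 1, 2 and 3. CENSAT_MC had 0 counts in all 6 libraries, which allows up to 3 counts in each (one-sided 95% limit), or 0.102 to 0.116 CPM. In none of these 3 names did the groups stand apart, but SYNREP_MM and CENSAT_MC had too few counts to compare the groups.

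Summed over the 3 embryos of a group, GSAT_MM had 27 counts in controls (exact Poisson 95% interval 17.8 to 39.3) and 32 in knockouts (21.9 to 45.2). Per scaled gene count the knockouts had 1.25 times the control value, with an exact 95% interval of 0.727 to 2.17, so that no difference was detectable with so few counted reads. SYNREP_MM had 3 counts against 4, a ratio of 1.41 with an interval of 0.238 to 9.62, and its log2 ratio of 0.50 ran from -0.10 without control 1 to 1.51 without control 3 and was 1.07 without knockout 2. These intervals cover counting error only, and reads copied in PCR are not independent molecules. GSAT_MM varied between embryos about as counting alone would make it vary, with a coefficient of variation of 35.2% in controls and 28.7% in knockouts beside 31.9% from counting. The 3 names did not pass the filter on low counts, which asks for the CPM of 10 counts in a library of median size in at least 3 libraries. Fitted without that filter by edgeR over 1148 names, GSAT_MM had an adjusted p of 0.659 and SYNREP_MM of 0.802.

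**Figure D1:**
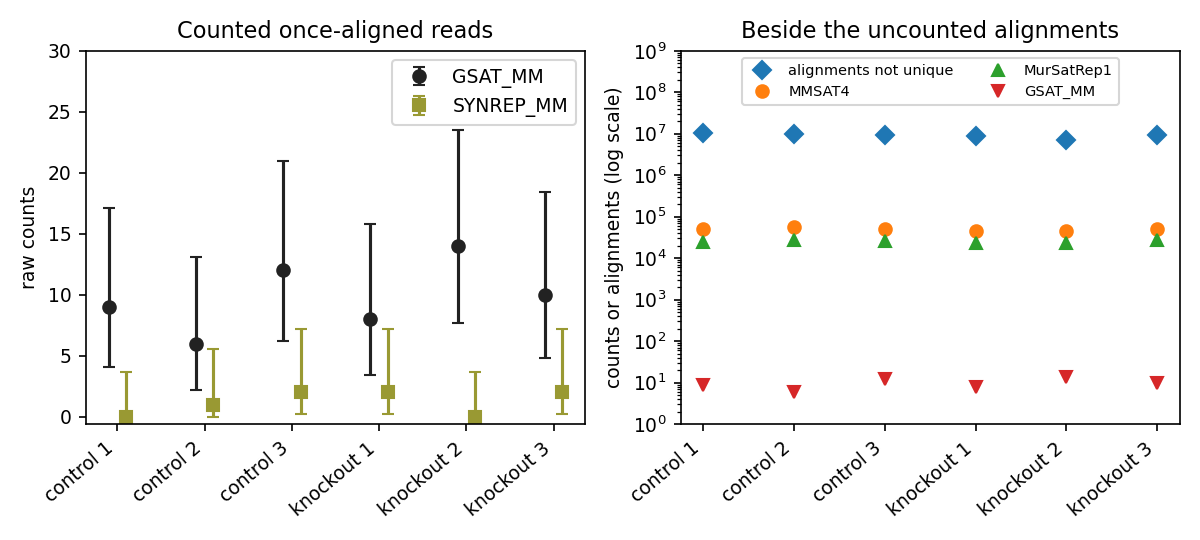
Left, raw counts of GSAT_MM and SYNREP_MM in each library, with exact Poisson 95% intervals. Right, on a log axis, the alignments set aside as not unique in each library beside the counts of MMSAT4, MurSatRep1 and GSAT_MM: GSAT_MM stays between 6 and 14 while alignments that were not unique run from 7164312 to 10286623.

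Reads that align to more than 1 place were set aside, and their alignments outnumbered the counted major satellite reads by orders of magnitude. One read may enter as more than 1 alignment, so the values below are not numbers of reads. Alignments that were not unique numbered 10286623, 10118831 and 9132928 in controls 1, 2 and 3 and 8674903, 7164312 and 9245769 in knockouts 1, 2 and 3. There were 511737 to 1686472 such alignments for each counted GSAT_MM read. If 1 in 100000 of them came from the major satellite, that alone would be 72 to 103 alignments per library, more than any GSAT_MM count. The files do not say which repeats the uncounted alignments belong to, so the level of major and minor satellite RNA was not measured by these counts, and neither was its difference between the groups.

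The uncounted alignments also differed between libraries. They made up 22.6%, 22.1% and 21.4% of all alignments in controls 1, 2 and 3, and 20.9%, 18.2% and 20.3% in knockouts 1, 2 and 3. On this measure every control lay above every knockout, and knockout 2 was the lowest. Per scaled gene count the controls had 0.34 ± 0.0155 such alignments and the knockouts 0.305 ± 0.0363 (SD, n = 3), a log2 ratio of -0.15. The groups overlapped on that scale, as knockout 1 lay above control 3. They also overlapped per gene count without TMM factors, with 0.338, 0.332 and 0.329 in the controls against 0.348, 0.258 and 0.332. Their source is mixed, as structural RNA such as ribosomal RNA also aligns to many places, and the part of satellites in this difference was not tested.

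MMSAT4 and MurSatRep1, in contrast, were counted 23041 to 54980 times in every embryo, and their group means lay within 1 SE of the fit. By counts MMSAT4 was in place 3 of 1217 names, after the ribosomal RNA names SSU-rRNA_Hsa and LSU-rRNA_Hsa, and MurSatRep1 in place 11. Copy numbers and lengths of the names were not used here, so this order is of counts and not of levels. Together both names held 99.98% to 99.992% of the counts of the 5 satellite names in each library.

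MMSAT4 had 50359, 54980 and 50041 counts in controls 1, 2 and 3 and 44813, 46104 and 50212 counts in knockouts 1, 2 and 3. Scaled, this was 1727, 1869 and 1768 CPM in the controls against 1726, 1702 and 1723 CPM in the knockouts. All 3 knockouts lay below all 3 controls, but the lowest control and the highest knockout were only 0.62 CPM apart, and 1.29% of tested repeat names had the knockouts lower without overlap. The means were 1788 ± 73.4 and 1717 ± 12.9 CPM (SD, n = 3), and the two-sided exact permutation p was 0.1, the smallest that 3 against 3 can give. With gene count totals in place of TMM scaling the groups overlapped. Its log2 fold change was -0.06 ± 0.17 (SE), with a 95% interval of -0.45 to 0.33 and an edgeR adjusted p of 0.806.

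MurSatRep1 was counted 24884, 28214 and 25884 times in controls 1, 2 and 3, against 23041, 23703 and 26740 times in knockouts 1, 2 and 3. Scaled, it stood at 853.2, 959.2 and 914.4 CPM against 887.5, 875.1 and 917.3 CPM, and the groups overlapped, with the lowest and the highest value both in controls. The means were 908.9 ± 53.2 and 893.3 ± 21.7 CPM (SD, n = 3). Its log2 fold change was -0.03 ± 0.16 (SE), with a 95% interval of -0.40 to 0.35 and an edgeR adjusted p of 0.914. The exact permutation p was 0.7. An interval of 0.732-fold to 1.26-fold for MMSAT4 and of 0.756-fold to 1.28-fold for MurSatRep1 does not show that the groups were equal.

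**Figure D2:**
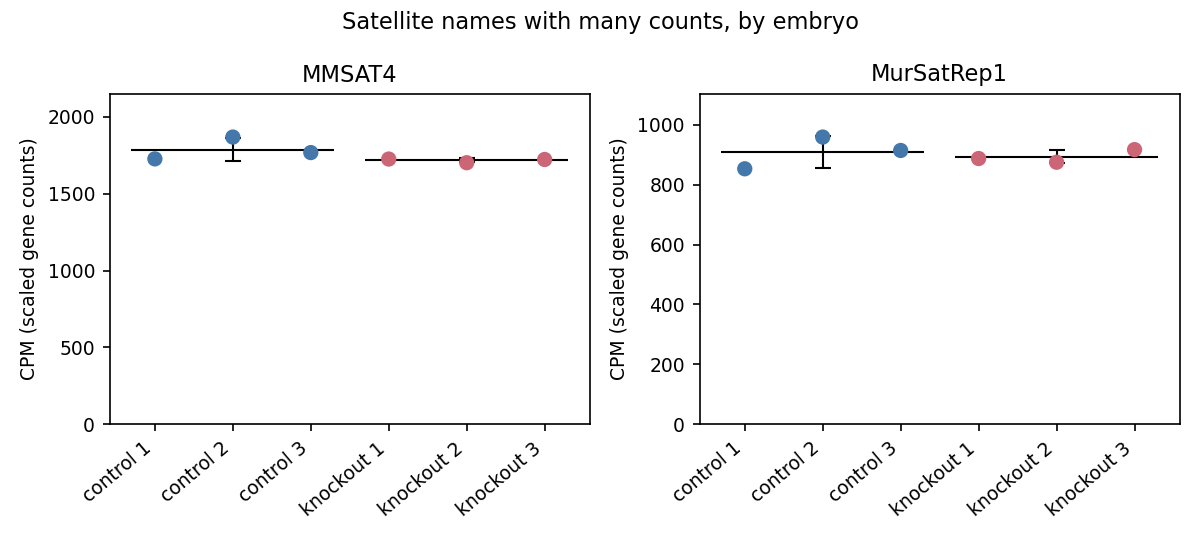
CPM of MMSAT4 (left) and MurSatRep1 (right) in each of the 6 libraries, controls in blue and knockouts in red, with the group mean as a line and the SD as a bar. MMSAT4 lies between 1702 and 1869 CPM and MurSatRep1 between 853.2 and 959.2 CPM.

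Neither of the 2 tested satellite names was called, and neither was any other repeat name: of 853 tested by edgeR at an adjusted p under 0.05, 0% were called. At an unadjusted p under 0.05 there were 106 names, 104 of them higher in knockouts, and neither tested satellite name was among them. By limma-voom 0 names were called, and by DESeq2 2, ETnERV3-int and RMER17A-int, both retroviral. The count of calls over all names depended on knockout 2, without which edgeR called 548 names, 546 of them higher in knockouts. Even then MMSAT4 was at -0.05 (edgeR adjusted p = 0.752) and MurSatRep1 at -0.01 (0.948). With knockouts 2 and 3 summed, edgeR called 0 of 881 names, and 423 had an unadjusted p under 0.05. MMSAT4 was then at -0.06 (edgeR adjusted p = 0.776) and MurSatRep1 at -0.03 (0.889).

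The 2 names were steady among embryos. Over all 6 libraries MMSAT4 had an SD of 0.0493 on the log2 CPM scale and MurSatRep1 of 0.0595, where the median of the tested names was 0.382. Among the 37 names with a mean of at least 10000 counts, the median SD was 0.407 and MMSAT4 had the lowest. Counting alone gives MMSAT4 a coefficient of variation of 0.45%, and the embryos showed 4.11% in controls and 0.752% in knockouts. In MurSatRep1 these were 0.627% from counting, 5.86% in controls and 2.43% in knockouts. On this TMM-scaled measure the control embryos were more spread than the knockouts in both names, with control 1 the lowest and control 2 the highest of the controls. The order of the spreads depended on the scaling. With gene count totals without TMM factors, MMSAT4 stood at 1754 ± 86.9 in controls and 1752 ± 80.5 in knockouts (SD, n = 3). Divided by all alignments or by all repeat counts, the controls were still the more spread in both names. Divided by alignments outside genes, the knockouts were, with MMSAT4 at 7698 ± 2930 beside 10480 ± 1330 in controls. The same held with repeat counts without structural RNA or alignments that were not unique.

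In such a fit edgeR draws the spread of each name toward that of the other names. The biological coefficient of variation that the fit gave MMSAT4 was 17.0%, beside a common value of 27.8%. When both names were tested together with the genes, a choice made after seeing the data, MMSAT4 was given 8.26% and its 95% interval was -0.25 to 0.13 on the log2 scale (edgeR adjusted p = 0.725). MurSatRep1 then had an interval of -0.21 to 0.16 (edgeR adjusted p = 0.89).

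The names also kept their ratio to each other. MMSAT4 had 2.02, 1.95 and 1.93 counts for each count of MurSatRep1 in controls 1, 2 and 3, and 1.94, 1.95 and 1.88 in knockouts 1, 2 and 3. Of all tested names the 3 with profiles nearest to that of MMSAT4 over the 6 libraries were MTE2b-int, MER34B-int and MurSatRep1, at root mean square distances of 0.0235, 0.0304 and 0.0314 on the log2 scale, against a median distance of 0.362. Those nearest to MurSatRep1 were MMSAT4, MER34B-int and MTE2b-int, the last at 0.0369. MTE2b-int and MER34B-int are internal parts of old retroviral repeats, and had log2 fold changes of -0.07 and 0.00. Profiles this flat are alike mostly in varying little.

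Most repeat names had higher values in the knockouts, while both counted satellite names stood near 0. The median log2 fold change of the 853 tested names was 0.48, and 91.2% were above 0. MMSAT4 was 50th from the lowest, with 5.74% of names below it, and MurSatRep1 had 7.62% below it. The 4 names next after MMSAT4 by counts, picked with their values seen, were on both sides: the SINE names B3 and ID_B1 were at 0.66 and 0.57, and the low-complexity names GA-rich and AT_rich at -0.04 and 0.17. The difference from the other names was tested by scaling on the repeat counts themselves, which brings the median to 0.02. MMSAT4 was then at -0.45 (edgeR adjusted p = 0.393) and MurSatRep1 at -0.42 (0.395), so the difference of either from the bulk of repeats did not pass the test.

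**Figure D3:**
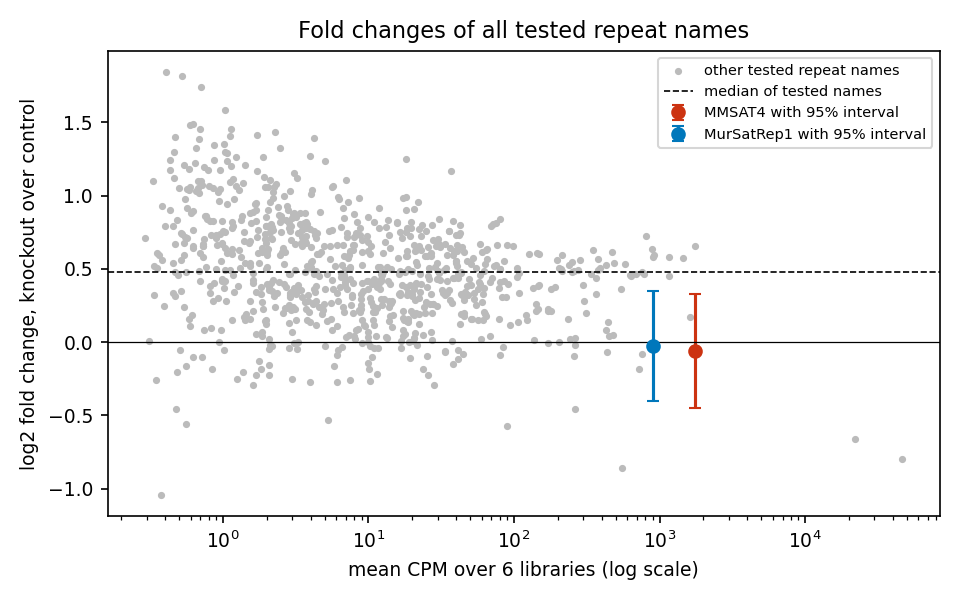
Log2 fold change (knockout over control) against mean CPM on a log axis for the 853 tested repeat names, one grey point each, with MMSAT4 and MurSatRep1 and their 95% intervals in colour. The dashed line is the median of all names, 0.48, and both satellite names lie near 0.

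The general shift went with the share of alignments outside genes, library by library. Repeat counts without structural RNA came to 36926 to 46008 CPM in the controls, and to 58372, 39097 and 59713 CPM in knockouts 1, 2 and 3. Knockouts 1 and 3, with 18.3% and 18.0% of alignments outside genes, were high, and knockout 2, with 10.6%, lay within the controls. MMSAT4, at 1726, 1702 and 1723 CPM in these 3 knockouts, did not show that split. With the share outside genes as a covariate the median of all names was -0.05, MMSAT4 was at -0.07 and MurSatRep1 at -0.06. Repeat reads outside genes enter both measures, so part of their agreement is built in. The share outside genes was also higher in knockouts 1 and 3 than in any control, so the covariate partly coincides with the group. The part of the reads outside genes in these values was not tested further.

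The measure by which counts are divided decided how the satellite names read. Divided by gene counts MMSAT4 varied by 4.27% over the 6 libraries and MurSatRep1 by 6.05%, and divided by all alignments by 4.22% and 4.79% (coefficients of variation). Per 1000000 alignments outside genes MMSAT4 varied by 27.9%, at 11310, 11180 and 8950 in controls 1, 2 and 3 against 5910, 11080 and 6109 in knockouts 1, 2 and 3. Knockouts 1 and 3 were low on that measure and knockout 2 was among the controls. Per 1000000 repeat counts the order changed again: control 1, which had the most structural RNA counts (3523147), had the least MMSAT4, 10950, where the other libraries had 14430 to 18360. On every measure but the TMM-scaled gene counts the groups of both names overlapped.

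**Figure D4:**
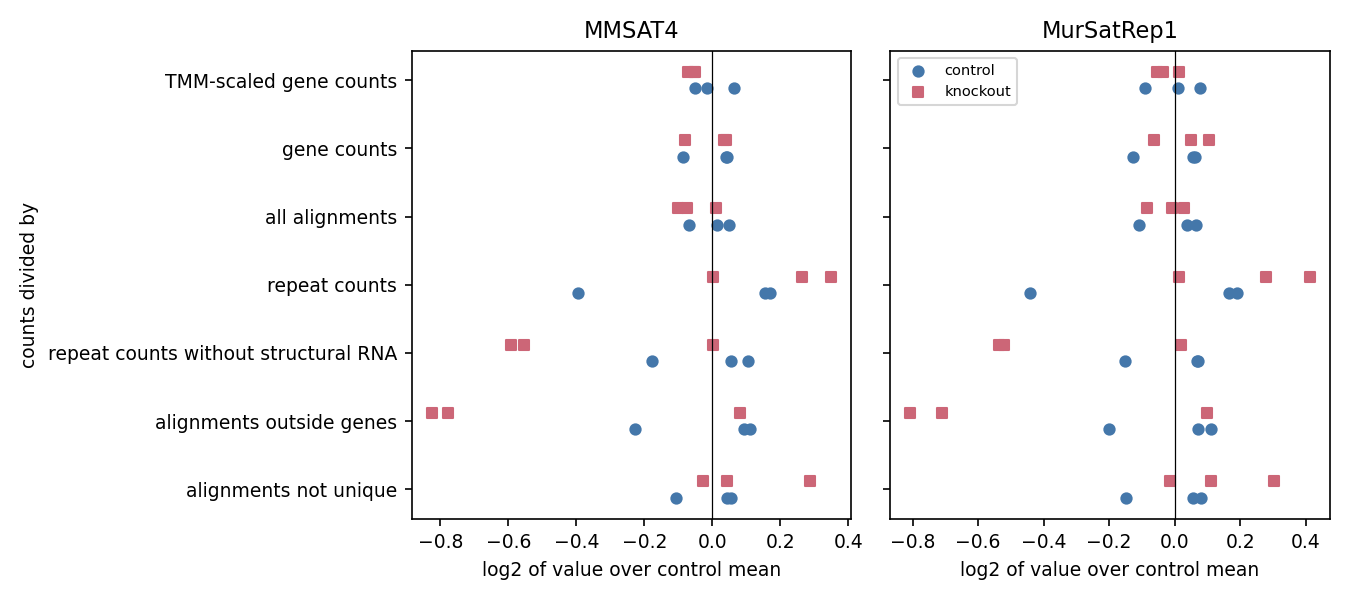
MMSAT4 (left) and MurSatRep1 (right) counts divided by 7 measures of library size, each library as the log2 of its value over the control mean, controls as circles and knockouts as squares. The points draw together when divided by gene counts or all alignments and spread when divided by repeat counts or alignments outside genes.

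Of all repeat counts, the 5 satellite names took 1.636%, 2.43% and 2.461% in controls 1, 2 and 3 and 2.185%, 2.623% and 2.814% in knockouts 1, 2 and 3. The Wilson 95% interval of control 1 was 1.624% to 1.648%, and the widest, of knockout 3, was 2.795% to 2.834%, so counting error is far smaller than the spread between embryos. With structural RNA names left out of the total the control shares were 6.987%, 6.839% and 5.831%, against knockout shares of 4.478%, 6.593% and 4.422%. The log2 ratio of the group means was 0.22 by the first measure and -0.34 by the second, and the groups overlapped in both.

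These 2 names stayed below 0 with the uncounted reads as a covariate, and turned with a library size that held them beside the repeat counts. With the share of alignments that were not unique as a covariate, MMSAT4 was at -0.05 (edgeR adjusted p = 0.901) and MurSatRep1 at -0.02 (0.95). With the repeat counts and the alignments that were not unique together as the library size, both turned to above 0, MMSAT4 to 0.14 (edgeR adjusted p = 0.604) and MurSatRep1 to 0.17 (0.518), and neither was called. Divided by repeat counts alone, the log2 ratios of the group means were 0.21 for MMSAT4 and 0.24 for MurSatRep1. Divided by the alignments that were not unique alone, they were 0.11 and 0.14. The part of the uncounted reads in this turn was not tested. In the 6 libraries MMSAT4 counts equalled 4900 to 6440 per 1000000 of the alignments that were not unique. Reads of MMSAT4 itself that align to several places were set aside and so not measured, and this ratio does not give their number.

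**Figure D5:**
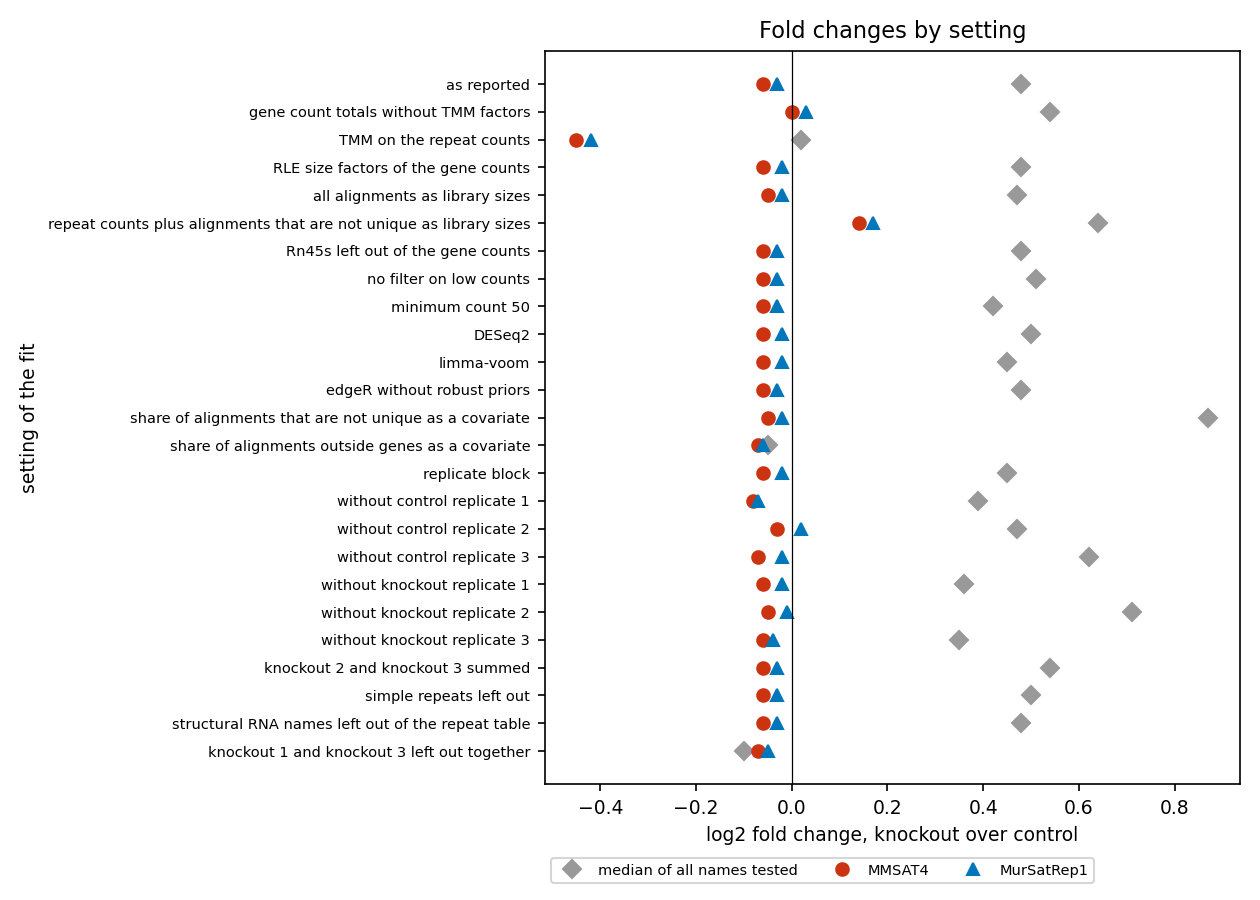
Log2 fold change of MMSAT4 (circles), MurSatRep1 (triangles) and the median of all tested repeat names (diamonds) under each setting of the fit, one line per setting. The satellite names stay between -0.45 and 0.17 while the median of all names runs from -0.10 to 0.87; the lowest line, chosen after seeing the data, has 1 knockout library only.

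Genes of 3 lists tied to satellite chromatin were looked at beside the targeted genes. Of the 15075 tested genes edgeR called 1.51%, and 19.2% had an unadjusted p under 0.05. Of 30 listed genes of pericentric heterochromatin 29 were tested and 0 were called, whether by edgeR, by DESeq2 or by limma-voom; in edgeR 6 had an unadjusted p under 0.05, a share near that of all genes. Their median log2 fold change was 0.06, beside -0.001 over all genes, and they ran from -0.23 to 0.44. The 3 with the smallest p were Cbx1, an HP1 protein, at -0.23 (edgeR adjusted p = 0.134), the histone demethylase gene Kdm4b at 0.33 (0.149) and the zinc finger gene Sall4 at 0.37 (0.18). Suv39h1 and Suv39h2, the enzymes of lysine 9 methylation at the major satellite, were at 0.06 and -0.06, and are named for this role with their values seen.

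Of 26 listed genes of the centromere 25 were tested, 0 were called by edgeR and 0 by limma-voom, and 3 had an unadjusted edgeR p under 0.05, beside the 19.2% of all genes. Their median was -0.04. The 3 with the smallest p were Hjurp, the chaperone that loads CENP-A, Cenpl, of the inner kinetochore, and Cenpb, whose product binds minor satellite DNA. Hjurp stood at 24.3, 27.0 and 35.9 CPM in controls 1, 2 and 3 and at 48.3, 33.0 and 59.7 CPM in knockouts 1, 2 and 3, a log2 fold change of 0.69 (edgeR adjusted p = 0.147). Knockout 2 lay within the controls. DESeq2, which called 783 genes where edgeR called 227, called Hjurp (adjusted p = 0.02). So did edgeR without knockout 2 (0.90, adjusted p = 0.00862), a setting that called 1665 genes, while with each other library left out it was not called (0.135 to 0.443). Cenpl was at -0.34 (edgeR adjusted p = 0.162) and Cenpb at -0.33 (0.161), the latter called without knockout 2 (-0.46, 0.00769).

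All 10 genes listed for the placing of histone H3.3 were tested, and 0 were called, whether by edgeR, by DESeq2 or by limma-voom. In edgeR 1 had an unadjusted p under 0.05, beside the 19.2% of all genes. The list also holds Nasp, Asf1a and Asf1b, chaperones that are not specific to H3.3. Their median was -0.06. The 3 with the smallest p were Ubn2, a subunit of the HIRA complex, at 0.44 (edgeR adjusted p = 0.243), Dek at -0.12 and Nasp, a histone chaperone, at -0.11. Ubn2 was called without knockout 2, as were 1665 genes (0.64, edgeR adjusted p = 0.008). Atrx and Daxx, named for their part at the major satellite with their values seen, were at -0.11 (edgeR adjusted p = 0.543) and 0.07 (0.654).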

How the data were processed

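For each embryo there were 2 deposited files of raw read counts, one by gene symbol and one by repeat name, which the authors had not normalized. Trimmomatic, TopHat2, Bowtie2, HTSeq and the mm9 build are listed in the submitters' processing notes. Their versions, the strand setting and the annotation of repeats were not given in the sources used here. Library preparation was stranded, per the labels' protocols. Rows that name no feature stayed out of library sizes and tests, and are described as alignments outside genes or not unique.

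Repeat names and genes were tested with edgeR 4.0.16 (R 4.3.3): quasi-likelihood F tests, robust fit, group as the only term, all 6 libraries, and the filter of filterByExpr (minimum count 10, total 15). Library sizes were gene count totals times the TMM factors of the gene counts. P-values were adjusted by Benjamini-Hochberg over all tested rows, 853 repeat names or 15075 genes, with 0.05 as the threshold. A standard error is the size of the log2 fold change divided by the root of F. Low counts have exact Poisson or binomial intervals. Profiles were compared on log2(CPM + 0.5). The fits were tested on simulated data.

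Members, lists and tests were chosen with earlier results of these data known. Named were all satellite names, H3f3a, H3f3b, Trp53, the 3 genes of each list with the smallest p, and the 3 nearest profiles. Trp53 had a log2 fold change of 0.71 (edgeR adjusted p = 0.169), called without knockout 2 (0.91, 0.0199). Replicate numbers come from the titles. Deviations of same-numbered embryos correlated at -0.10, 0.23 and 0.31 over genes and at -0.35, 0.09 and 0.5 over repeat names. As these differed in sign, the embryos were not used as pairs in the main fits. Alternatives were other scalings, DESeq2 1.42.0, limma-voom (limma 3.58.1), other filters, covariates, a replicate block, each library left out, and knockouts 2 and 3, whose files share a code, summed. No sequence of a satellite name was used here.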

Additional observations from a re-analysis of the deposited data

How the results depend on the processing

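Neither MMSAT4 nor MurSatRep1 was called under any of 25 alternatives, with log2 fold changes of -0.45 to 0.14 and of -0.42 to 0.17 and adjusted p-values of 0.393 to 0.998 and of 0.395 to 0.998. The direction of MurSatRep1 turned with gene count totals without TMM factors (0.03), and it ran from -0.07 without control 1 to 0.02 without control 2. With repeat counts plus alignments that were not unique as the library size, MMSAT4 turned to 0.14 and MurSatRep1 to 0.17. With the replicate block they were at -0.06 and -0.02. The count of repeat names called went from 0 to 2 by DESeq2, to 14 with the share outside genes as a covariate, to 7 without knockouts 1 and 3 (chosen on their values, leaving 1 knockout that is assumed to vary like the controls), and from 0 to 548 with single libraries left out, the last without knockout 2. The satellite share of repeat counts, 0.22 as the log2 ratio of knockouts over controls, was -0.04 as a share of all alignments and -0.34 without structural RNA. Genes called went from 227 to 783 by DESeq2, to 589 with the replicate block, and to between 60 (without control 2) and 1665 (without knockout 2) with single libraries left out; with the block Hjurp was called (0.67, edgeR adjusted p = 0.0308). The GSAT_MM ratio (log2 0.33) ran from 0.07 to 0.60 without single libraries and was -0.14 with scaling on repeat counts. The causes were not tested. GSAT_MM, SYNREP_MM and CENSAT_MC are limited by few counts and by the uncounted alignments. Reads that did not align at all were not counted either. Only RNA with a poly(A) tail was targeted, and the effect of this on the 3 names was not tested.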
